A study of Mus musculus with 26 samples.

Results

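Joins between the Sγ3 bait and Sµ were examined in 13 CSR-HTGTS libraries, an assay in which genomic DNA is amplified from a primer next to a chosen region and each read shows the sequence to which a break in that region was joined. The joins were taken by position and not by any measured value. They are the junctions of Sγ3-bait libraries whose prey lies on chromosome 12 between 114642000 and 114681999 of the mouse build mm9, in either orientation. There were 69881 such joins among 519292 junctions of the Sγ3-bait libraries and 777800 junctions of the whole series of 26 libraries.

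All libraries came from mature splenic B cells of mice 6 to 8 weeks old, stimulated for 96 h according to the labels. The paper's methods give the same strain background for WT and mutant mice. Positions, motifs and printed sequences follow the reference build. Differences between that strain and the build in the Sµ repeats were not tested. WT mice carry the normal IgH locus. A150 mice are homozygous for a replacement of the Iγ3 promoter by a cassette with a VH promoter, a VDJ exon and the Eµ enhancer, so that Sγ3 is driven from an Eµ copy. The change is in the germline and thus in every cell of the animal. Cells received anti-CD40 with IL4 (hereafter IL4), or anti-CD40 with IL4, IL5, TGFb and b-Lys (hereafter TGF). Both mixes therefore hold anti-CD40 and IL4, with IL4 at a lower concentration in the TGF mix according to the paper's methods. There were 3 A150 libraries for IL4, 4 A150 libraries for TGF, and 3 WT libraries for each stimulation. Because the cassette brings a second Eµ, reads that end upstream of the switch repeats could stem from either copy, and the 2 copies cannot be told apart here.

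Class switch recombination replaces the constant region of an antibody. AID deaminates cytidines in the repetitive switch regions, the resulting breaks are joined by classical or alternative end-joining, and overlaps of a few bases at the join, called microhomology, are used more by the alternative pathway. Sµ is normally the donor and a downstream region such as Sγ3 or Sγ1 the acceptor. Its repeats are rich in AGCT, a palindromic motif favoured by AID that presents targets on both DNA strands. The IgH locus is transcribed towards lower coordinates, and the Sγ3 bait primer reads in that direction. A prey on Strand -1 keeps the orientation of the bait. Since Sµ lies upstream of Sγ3, such a join links the upstream side of Sγ3 to the downstream side of Sµ, which is the linkage an excision circle carries. A prey on Strand 1 is inverted, and the upstream sides of Sγ3 and Sµ are linked. Joins between the 2 alleles give the same linkages and were not separated.

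The sequences that these joins connect are shown first, on the minus strand from 5′ to 3′ with every AGCT in capitals. They were recovered from read bases that the alignments mark as matching mm9. The first is the bait, in which each read starts at the left and breaks off at a variable point. It has 211 bases and 7 AGCT motifs. The others are the 200 bases of Sµ that hold the most joins of each orientation, with 20 and 17 motifs, respectively.
Sγ3 bait, chr12:114606119-114606329: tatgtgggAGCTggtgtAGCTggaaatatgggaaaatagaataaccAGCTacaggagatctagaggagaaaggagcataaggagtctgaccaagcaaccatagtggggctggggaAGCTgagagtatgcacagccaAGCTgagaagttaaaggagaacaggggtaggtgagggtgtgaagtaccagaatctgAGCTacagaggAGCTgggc
Sµ, inverted joins, chr12:114667911-114668110: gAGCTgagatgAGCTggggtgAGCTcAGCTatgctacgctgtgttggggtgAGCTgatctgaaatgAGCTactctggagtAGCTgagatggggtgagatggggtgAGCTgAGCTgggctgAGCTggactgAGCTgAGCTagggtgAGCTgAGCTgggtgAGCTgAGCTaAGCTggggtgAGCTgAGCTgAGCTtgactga
Sµ, joins in the bait's orientation, chr12:114665023-114665222: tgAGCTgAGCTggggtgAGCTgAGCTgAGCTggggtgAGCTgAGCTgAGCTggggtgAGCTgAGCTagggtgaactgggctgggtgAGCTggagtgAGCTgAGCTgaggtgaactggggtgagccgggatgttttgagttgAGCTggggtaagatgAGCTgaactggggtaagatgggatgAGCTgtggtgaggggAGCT
The first Sµ stretch held 13439 inverted joins, 27.7% of that orientation in all A150 libraries and between 25.9% and 30.5% in each. The other held 2076 joins in the bait's orientation, 9.74% in all and between 8.71% and 10.7% in each. Inverted joins were thus the more concentrated of the 2 kinds.

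Exact junctions show how the 2 regions met. For each orientation and each class of junction, the join found in the most A150 libraries is printed with 25 bases on either side. Capitals mark the bases inserted or shared, and a direct join has none.
inverted, insertion of 1 base: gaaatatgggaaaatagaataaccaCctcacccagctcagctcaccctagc
inverted, direct: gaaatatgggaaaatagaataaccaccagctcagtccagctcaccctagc
inverted, 2 shared bases: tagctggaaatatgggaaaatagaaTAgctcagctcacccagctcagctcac
inverted, 4 shared bases: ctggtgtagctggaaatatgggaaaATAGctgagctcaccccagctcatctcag
bait's orientation, insertion of 3 bases: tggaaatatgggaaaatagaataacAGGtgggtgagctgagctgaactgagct
bait's orientation, direct: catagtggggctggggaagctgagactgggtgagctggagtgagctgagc
bait's orientation, 3 shared bases: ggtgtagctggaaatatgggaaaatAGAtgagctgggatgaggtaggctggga
bait's orientation, 7 shared bases: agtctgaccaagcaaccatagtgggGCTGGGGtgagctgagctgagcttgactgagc
The inverted joins broke at Sµ positions 114667950, 114667886, 114667942 and 114668079, in that order. Those in the bait's orientation broke at 114665460, 114665143, 114664899 and 114667940. The inverted join with 2 shared bases, that with 4, and the one in the bait's orientation with 7 were each found in all 7 A150 libraries. The other 5 were found in 2 to 5. Such repeats were not the rule: the 69858 A150 joins comprised 61034 different junctions, of which 5857 were present in more than 1 library. No read name occurred in more than 1 Sγ3-bait library, and 1.08% of the joins repeated a junction of their own library.

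Sµ joins were abundant in A150 libraries and rare in WT libraries. A150 libraries for IL4 held 11797, 15960 and 12161 Sµ joins, those for TGF 7209, 8855, 6171 and 7705. WT libraries for IL4 held 3, 9 and 5, those for TGF 2 each. The total on the A150 side was 69858 and on the WT side 23. IgH junctions, counted from 114450000 to 114700000 on chromosome 12, numbered between 35111 and 96481 per A150 library and between 31 and 102 per WT library. All later tests of orientation, position and junction structure therefore rest on A150, and the WT joins are only described.

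As a share of IgH junctions, Sµ joins made up 17.0%, 16.5% and 14.4% of the A150 libraries for IL4 and 18.9%, 19.1%, 17.6% and 17.0% of those for TGF. The 2 stimulations overlapped. The means were 15.99% ± 1.404 (SD, n = 3) and 18.1% ± 1.02 (SD, n = 4), and the difference of 2.15 percentage points did not pass an exact permutation test over libraries (2-sided p = 0.0857, adjusted p = 0.129 over 6 comparisons of the stimulations). It was 1.35 points without IL4 library 3, 0.574 without junctions marked as duplicates, 0.686 with identical junctions counted once and 3.59 among IgH junctions outside Sγ3. Its sign was not stable. Of all junctions of the genome, the share in TGF was lower by 1.01 points, and the same size and sign (-1.01) was obtained when junctions marked for low mapping quality were left out. No Sµ join carried that mark or a duplicate mark, so the second change came from the denominator alone. For the first, the denominators differ by stimulation. IgH junctions made up 94.9% ± 0.780 (SD, n = 3) of all junctions for IL4 and 78.2% ± 1.95 (SD, n = 4) for TGF, without overlap.

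WT shares were 3.85%, 11.8% and 4.90% for IL4 and 4.76%, 6.45% and 6.06% for TGF, all below every A150 library. With genotype labels permuted within each stimulation, A150 exceeded WT by 10.8 points (exact permutation p = 0.00143, 700 arrangements). The difference was 9.13 points for IL4, where 3 against 3 libraries cannot give an exact p below 0.1, and 12.4 points for TGF (exact p = 0.0286). Counting error is wide in WT. The 95% Wilson interval of the WT library with 9 joins ran from 6.36% to 21.0%, and the share that a count of 0 would still allow lay between 2.94% and 9.68% in WT libraries against at most 0.00854% in A150. The share depended on what it was measured against: among IgH junctions outside the Sγ3 region itself, A150 exceeded WT by 1.36 points (exact permutation p = 0.75), and without junctions marked for low mapping quality by 31.9 points (exact permutation p = 0.00143). The 23 WT joins comprised 12 inverted joins and 11 in the bait's orientation, 20 of them in the 6 kb of Sµ where A150 joins were dense, and none had more than 3 shared bases. An exact A150 junction was met by 3 of them. For comparison, between 18.9% and 21.9% of the joins of an A150 library had the same exact junction in another A150 library. Carry-over of A150 molecules into WT libraries was not tested. The labels name A150 as the target locus of all Sγ3-bait libraries, WT included, and IgH junctions made up between 0.255% and 2.71% of all junctions in WT libraries against between 75.6% and 95.5% in A150. The baits were designed for A150, and the bait stretch printed above maps to mm9. Amplification from the bait and genotype cannot be told apart in this comparison.

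Inverted joins predominated in every A150 library. They made up 70.8%, 72.9% and 69.98% of Sµ joins for IL4 and 66.0%, 68.0%, 65.8% and 67.5% for TGF. These values lie 18.7 points above an even split on average, in 7 of 7 libraries (exact sign-flip p = 0.0156, the smallest that 7 libraries allow, adjusted p = 0.0179 over 8 comparisons within libraries). In the same libraries, Sγ1 joins, which lie downstream of the bait and include the deletions of ordinary switching, were inverted in 14.1% ± 0.800 (SD, n = 3) for IL4 and 16.1% ± 1.13 (SD, n = 4) for TGF. The inverted share of Sµ joins was higher by 53.5 points, again in 7 of 7 (exact p = 0.0156, adjusted p = 0.0179). The size of this gap depended on the processing. Over 6 other settings it ran from 37.3 to 54.8 points, with the call unchanged in all 6. Joins to Sε, another downstream acceptor, were inverted in 22.2% ± 2.02 (SD, n = 3) and 29.6% ± 1.14 (SD, n = 4). Joins to Sα, the acceptor for IgA, were inverted in 33.6% ± 4.36 (SD, n = 3, between 26 and 37 joins per library) and 43.6% ± 2.27 (SD, n = 4, between 321 and 491 joins), the closest of these downstream regions to Sµ.

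The balance differed between the stimulations before adjustment only. All TGF libraries had a lower inverted share than all IL4 libraries, by 4.42 points on average, which is the most extreme of 35 arrangements (exact p = 0.0286) and does not pass after adjustment over the 6 comparisons (adjusted p = 0.129). Comparisons marked here as added were chosen once the values had been seen. Split by orientation (added), joins in the bait's orientation took 4.97%, 4.48% and 4.32% of IgH junctions for IL4 and 6.42%, 6.10%, 6.02% and 5.53% for TGF, without overlap (exact p = 0.0286, adjusted p = 0.0571 over 10 added comparisons). Inverted joins took 12.1%, 12.1% and 10.1% for IL4 and 12.5%, 12.99%, 11.6% and 11.5% for TGF, with overlap (exact p = 0.371). Neither change passed after adjustment.

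**Figure D1:**
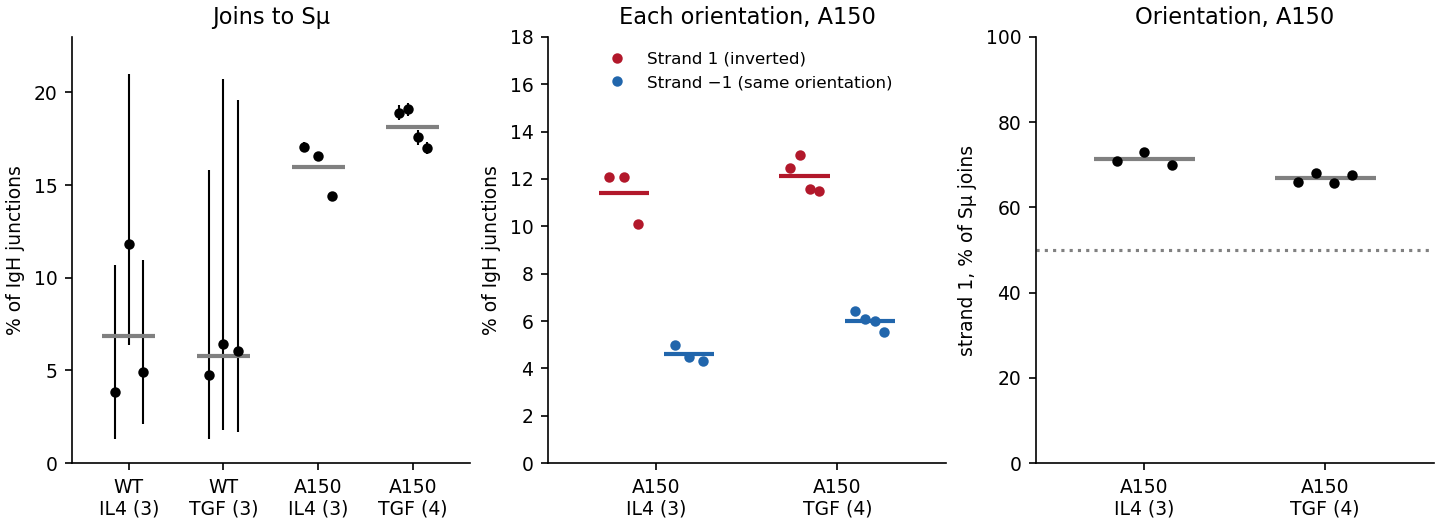
Sµ joins of each Sγ3-bait library. The left panel gives their share of IgH junctions (%) with 95% Wilson intervals, the middle panel the share of each orientation in A150, and the right panel the inverted share of Sµ joins (%) with Wilson intervals and a dotted line at 50%. Points are libraries, horizontal lines are group means and the number of libraries is in brackets. The A150 libraries lie between 14.4% and 19.1% on the left, above all WT libraries, and every A150 library lies above the dotted line.

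The reciprocal view was available from A150 libraries prepared with a primer upstream of Sµ. The inverted product joins the upstream sides of both regions, so either bait reads it, whereas the 2 baits read different products when the orientation is kept. Sµ-bait joins to Sγ3 were inverted in 66.8% ± 0.876 (SD, n = 4) for IL4 and 56.6% ± 2.39 (SD, n = 3) for TGF. The inverted share was 7.32 points higher with the Sγ3 bait (added, exact permutation p = 0.000816, adjusted p = 0.00122 over 6 added comparisons of the baits).

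The 2 orientations broke Sµ at different places. Distances are given downstream of 114668894, the upstream edge of the primer used as Sµ bait in other libraries. The median inverted join lay 861, 887 and 876.5 bp downstream for IL4 and 936, 937, 913.5 and 932 bp for TGF. The median join in the bait's orientation lay 2989, 2864 and 2705 bp downstream for IL4 and 2794, 2702, 2570 and 2743.5 bp for TGF. The ranges are far apart. Within a library, inverted joins lay 1861 bp further upstream on average, between 1656.5 and 2128 bp, in 7 of 7 libraries (exact p = 0.0156, adjusted p = 0.0179).

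The recovered sequence placed these medians against the repeats. AGCT motifs were dense over 4000 bp, from 114664250 to 114668249, which held 442 motifs or 11.1 per 100 bases. That span was delimited as the run of 250-bp bins with at least 5 motifs around the densest bin. The 645 bp between the span and the primer's upstream edge held 5. Of inverted joins, 25.1% ± 1.32 (SD, n = 7) fell in the 250 bp centred 0.769 kb downstream of the primer and 22.3% ± 1.66 (SD, n = 7) in the next 250 bp, at the upstream edge of the span. Joins in the bait's orientation spread along the span and were densest near its other end, with 11.1% ± 0.836 (SD, n = 7) in the 250 bp centred 3.769 kb downstream. The interquartile range of inverted joins ran from 676 to 1378 bp downstream on average over libraries, and that of the others from 1332 to 3602 bp.

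By segment (added), 76.8% ± 3.61 (SD, n = 7) of inverted joins and 86.6% ± 2.46 (SD, n = 7) of joins in the bait's orientation lay in the AGCT-rich span. The stretch between span and primer took 17.1% ± 2.80 and 3.21% ± 0.538 (SD, n = 7), respectively, and the sequence upstream of the primer 5.78% ± 0.820 and 8.65% ± 2.27 (SD, n = 7). All 3 differences had the same sign in 7 of 7 libraries (exact p = 0.0156 each, adjusted p = 0.0168 over 14 added comparisons within libraries). Where the cassette's copy ends is not given in the sources used here, so joins in both of these last segments could stem from either copy. The 6 kb from 114664000 to 114669999, delimited as the 1000-bp bins with at least 5% of the joins in the fullest bin, held between 97.8% and 98.8% of inverted joins and between 88.0% and 94.4% of the others. The window was drawn from the density of these same joins, most of them inverted, which favours a higher inverted share in it, so the difference of 6.18 points is a description.

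An inverted prey is read towards the upstream edge of the span and a prey in the bait's orientation towards its other edge. Of the joins that broke inside the span, between 8.58% and 16.5% of inverted preys and between 0.477% and 1.62% of the others ended outside it. The part of alignment in repeats in these profiles was not tested.

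The place of inverted joins also differed between the stimulations before adjustment only. In the stretch between span and primer they stood at 20.5%, 19.8% and 19.98% for IL4 and at 14.6%, 15.2%, 15.4% and 14.6% for TGF. The span held 72.7%, 73.2% and 73.0% for IL4 and 80.8%, 79.7%, 78.8% and 79.4% for TGF. Neither pair of groups overlapped (added, exact p = 0.0286 each, adjusted p = 0.0571). The median of inverted joins lay 54.8 bp further downstream in TGF (added, exact p = 0.0286, adjusted p = 0.0571), and that of joins in the bait's orientation differed by 150 bp the other way (added, exact p = 0.171). Over both orientations the median coordinate differed by -81.2 bp in TGF, further downstream (exact p = 0.0571, adjusted p = 0.129). The share in the 6 kb differed by 0.951 points (exact p = 0.171, adjusted p = 0.206), and by 0.538 points without IL4 library 3.

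**Figure D2:**
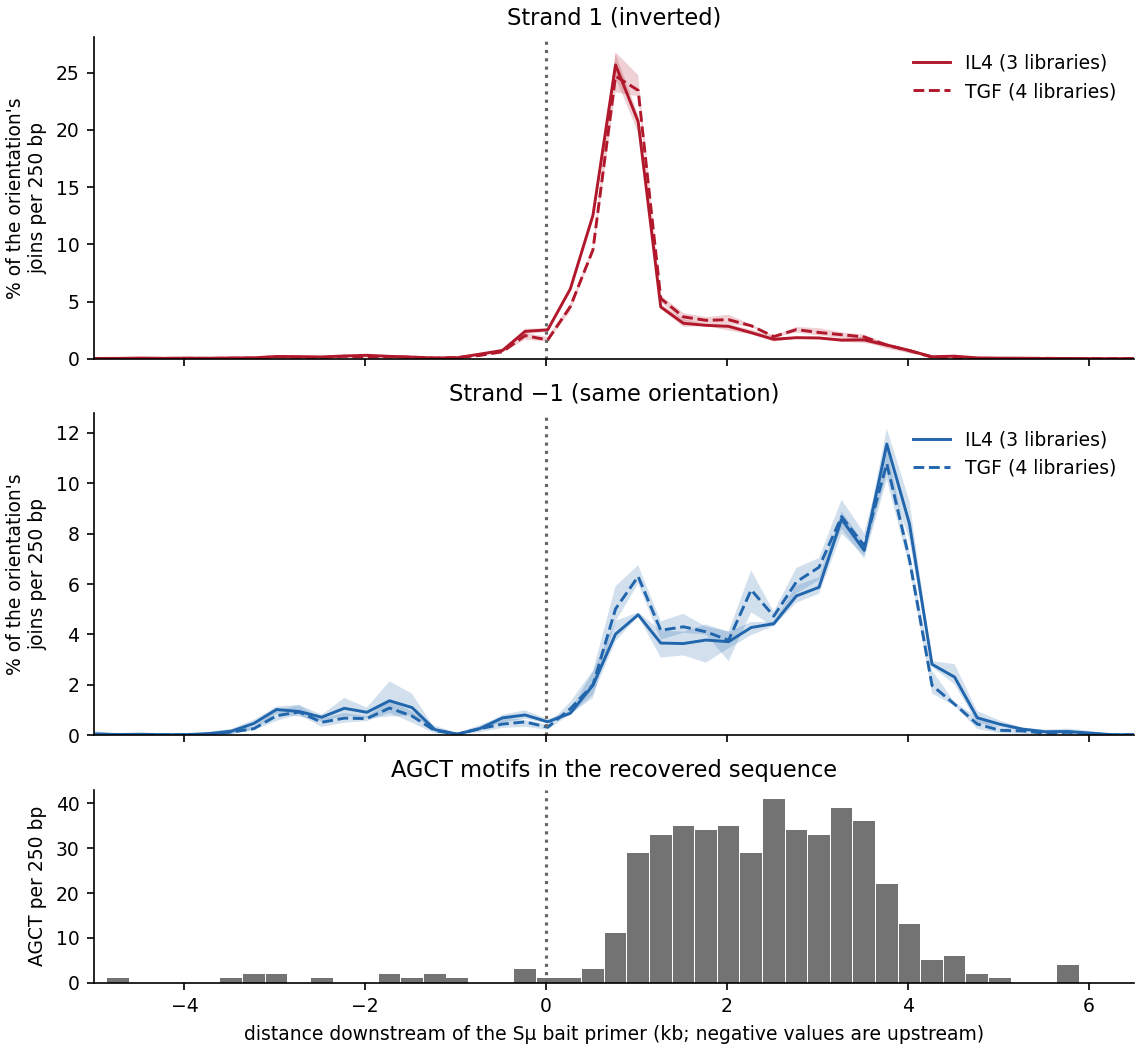
Position of Sµ joins in A150. The upper panels give, for each orientation, the percentage of its joins per 250 bp against the distance downstream of the Sµ bait primer in kb, as the mean over libraries with the range shaded. The bottom panel counts AGCT motifs per 250 bp of recovered sequence. Inverted joins peak 0.769 kb downstream, at the upstream edge of the motif-rich stretch, and joins in the bait's orientation peak at 3.769 kb.

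Against the Sµ bait, whose own Sµ joins are rearrangements within Sµ, the Sγ3-bait joins lay further downstream. The median was 963 bp ± 6.43 (SD, n = 3) for IL4 and 1045 bp ± 24.8 (SD, n = 4) for TGF with the Sγ3 bait, and 623 bp ± 45.9 (SD, n = 4) and 608 bp ± 38.2 (SD, n = 3) with the Sµ bait. The difference in coordinate was -389 bp (exact permutation p = 0.000816, adjusted p = 0.00122 over 3 comparisons of the baits), and -340 and -437 bp within IL4 and TGF (exact p = 0.0286 each). These medians pool orientations that the baits mix differently, with 71.2% and 66.8% inverted for the Sγ3 bait and 22.6% and 23.6% for the Sµ bait. By orientation (added), inverted joins had their median 906 bp ± 31.2 downstream with the Sγ3 bait and 572 bp ± 22.4 with the Sµ bait (SD, n = 7 each), a difference in coordinate of -330 bp. In the bait's orientation the medians were 2767 bp ± 133 and 647 bp ± 63.3 (SD, n = 7 each), a difference of -2132 bp (exact p = 0.000816, adjusted p = 0.00122 for both). The Sµ-bait primer lies in the window, and its part in the Sµ-bait profile was not tested.

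On the bait side, ends lay between 114606119 and 114606299. The most used end was 114606283 in both orientations, with 2545 inverted joins and 1061 others, the end of the inverted insertion and direct join printed above. On the Sµ side, single positions carried few joins. Joins used 5339 positions in inverted and 5447 in the bait's orientation, of which 1409 and 1727 were used once. The 5 positions with the most joins among those present in all 7 libraries were inverted: 114668099 with 208 joins, 114667943 with 182, 114667960 with 153, 114667951 with 146 and 114667941 with 143. Each held at most 0.588% of the inverted joins of any library. All 5 lie in the inverted stretch printed above, and 4 of them, all but 114667943, broke inside an AGCT, directly before its last base as the prey is read. The leading position in the bait's orientation, named after its value was seen, was 114665177 with 40 joins, and broke at the same place of the motif.

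This use of AGCT was tested over all direct joins in the span (added), for which the break is unambiguous. For each library the share of breaks inside an AGCT was set against the share of positions inside one, weighted by the 250-bp bins in which its joins lay. In the bait's orientation, 48.5% ± 1.89 (SD, n = 7) of breaks fell inside the motif against 34.9% of positions. In inverted joins it was 34.8% ± 1.32 (SD, n = 7) against 30.3%. Both excesses, 13.6 and 4.52 points, were present in 7 of 7 libraries, as was their difference, inverted minus the others, of -9.07 points (exact p = 0.0156 each, adjusted p = 0.0168). Within the motif the breaks were uneven. A prey that began with the motif's last base accounted for 33.1% of direct joins in the bait's orientation and 22.1% of inverted ones, against between 11.3% and 12.1% and between 9.78% and 10.5% from the bins. Breaks in the middle of the motif accounted for 10.1% and 9.06%, and a prey that lacked only the motif's first base for 5.11% and 3.54%, so that the excess lay at 1 of the 3 places. Direct joins leave out every join in which the neighbouring base is shared with the bait, and the part of that selection was not tested.

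Shared bases separated the orientations. More than 3 shared bases were found in 5.15%, 4.73% and 5.56% of inverted joins for IL4 and 5.93%, 5.69%, 6.14% and 6.44% for TGF. In the bait's orientation the values were 11.8%, 9.91% and 12.2% for IL4 and 11.7%, 11.1%, 11.97% and 11.97% for TGF. Every library had the lower value in inverted joins, by 5.85 points on average (exact p = 0.0156, adjusted p = 0.0179). Direct joins went the other way, at 31.4% ± 0.687 (SD, n = 7) of inverted joins and 26.5% ± 1.16 (SD, n = 7) of the others (added, exact p = 0.0156, adjusted p = 0.0168). Insertions did not separate them. They made up 23.7%, 25.2% and 24.5% of inverted joins for IL4 and 25.2%, 26.1%, 25.5% and 24.99% for TGF, and 23.9%, 25.7%, 25.1%, 24.04%, 25.2%, 23.1% and 26.1% of the others in the same order. The mean difference was 0.268 points (exact p = 0.594) and turned to -0.0768 without TGF library 3. The lower long-overlap share of inverted joins was not particular to Sµ. At Sγ1 it ran from 4.43% to 6.29% in inverted joins and from 10.3% to 11.8% in the others over these 7 libraries. At Sε the ranges were 4.07% to 7.54% and 9.16% to 11.3%, and the values at Sγ1 and Sε were not tested.

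The contrast in shared bases was present in the repeats and between them and the primer, and was not detected upstream of the primer (added). Inside the AGCT-rich span, 5.73% ± 0.679 (SD, n = 7) of inverted joins and 11.97% ± 0.902 (SD, n = 7) of the others had more than 3 shared bases, a difference of 6.24 points in 7 of 7 libraries. With inverted joins weighted to the 250-bp bins that the other orientation used, the difference was 5.23 points (exact p = 0.0156, adjusted p = 0.0168 for both). Between span and primer, long overlaps made up 4.68% ± 0.537 of inverted joins and 12.3% ± 3.44 of the others (SD, n = 7), lower in inverted joins by 7.57 points in 7 of 7 libraries (exact p = 0.0156, adjusted p = 0.0168), although only between 64 and 159 joins per library had the bait's orientation there. Upstream of the primer the values were 7.15% ± 1.41 and 6.996% ± 1.11 (SD, n = 7), a difference of 0.154 points (exact p = 0.844). Downstream of the span each library held between 5 and 36 inverted joins and between 29 and 84 others, and the contrast was not tested there. Long overlaps there made up 15.9% of inverted joins and 8.85% of the others for IL4, the opposite order, and 7.55% and 8.60% for TGF. The contrast itself, inverted minus the others, differed between span and upstream sequence by -6.40 points in 7 of 7 libraries (exact p = 0.0156, adjusted p = 0.0168). In the bait's orientation, the span exceeded the upstream sequence by 4.98 points in 7 of 7 libraries (exact p = 0.0156, adjusted p = 0.0168).

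A few shared sequences recurred, some of them at 1 bait end. Of 2662 inverted joins with more than 3 shared bases, 49.9% shared a stretch with AGCT, as did 34.6% of 2432 joins in the bait's orientation. AGCT alone led in both, with 544 joins (20.4%) and 221 joins (9.09%). Next among inverted joins came CAGCT with 247 and CCAGCT with 186, the latter at a single bait end, 114606280. Among the others came AGCTGAG with 192 joins, GAGC with 177 and GCTGGGG with 160. All GCTGGGG joins used the bait end 114606216, as in the join with 7 shared bases printed above. AGCTGAG and GCTGGGG have 7 bases, and the lengths had a separate maximum there. Exactly 7 shared bases occurred in 2.23% ± 0.429 (SD, n = 7) of joins in the bait's orientation, more than the 1.18% with 6 and the 0.558% with 8, and in 0.490% ± 0.0791 (SD, n = 7) of inverted joins. The difference of 1.74 points was present in 7 of 7 libraries (added, exact p = 0.0156, adjusted p = 0.0168). The longest overlap was 21 bases in the bait's orientation and 15 in inverted joins.

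**Figure D3:**
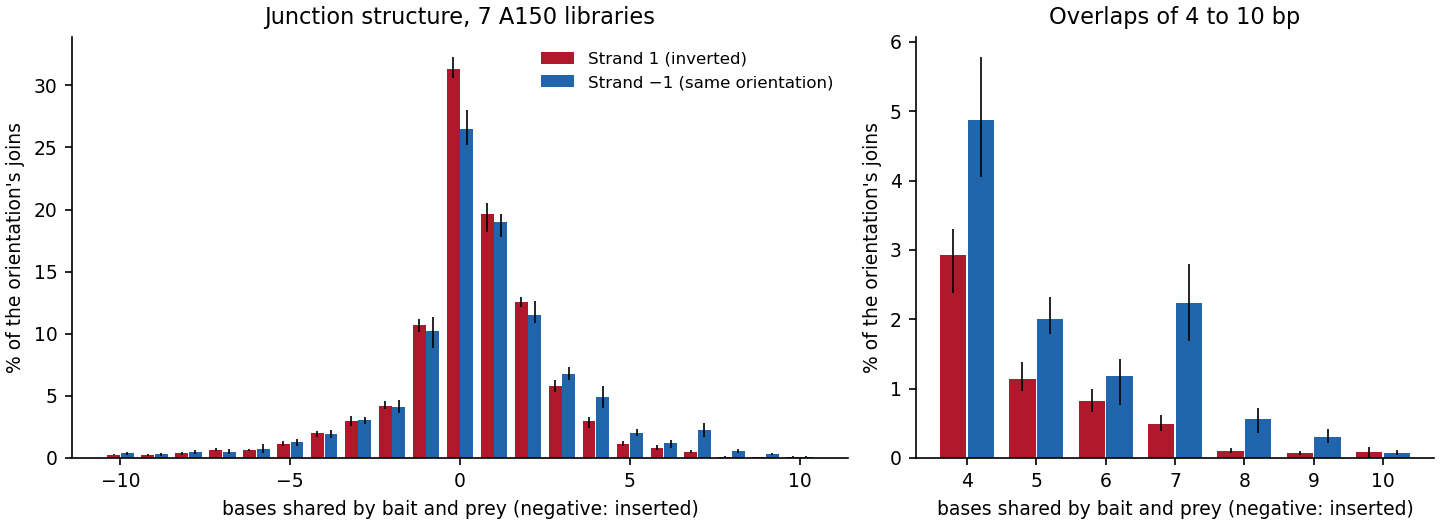
Junction structure of Sµ joins in 7 A150 libraries. Bars are means over libraries of the percentage of each orientation's joins with a given number of shared (positive) or inserted (negative) bases, and lines run from the lowest to the highest library. The right panel enlarges 4 to 10 shared bases, where the bait's orientation is higher at 4 to 9 and has a second maximum at 7.

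Long overlaps differed little with the stimulation. Over both orientations they were 0.992 points more frequent in TGF (exact p = 0.0857, adjusted p = 0.129), 0.594 points without IL4 library 2 and 0.344 points for more than 4 shared bases. Inverted joins showed 0.906 points more in TGF without overlap of the groups (added, exact p = 0.0286, adjusted p = 0.0571), and joins in the bait's orientation 0.364 points more with overlap (added, exact p = 0.714). Insertions differed by 0.563 points (exact p = 0.371), and by 0.135 points without IL4 library 1, 0.935 without IL4 library 2 and 0.348 without TGF library 2.

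Compared with Sγ1 joins of the same libraries, Sµ joins had fewer long overlaps and more insertions. The long-overlap share was 6.92% ± 0.731 (SD, n = 3) at Sµ and 9.61% ± 0.103 (SD, n = 3) at Sγ1 for IL4, and 7.92% ± 0.371 and 10.1% ± 0.467 (SD, n = 4) for TGF, 2.39 points lower at Sµ in 7 of 7 libraries. Insertions were 3.81 points more frequent at Sµ in 7 of 7 (exact p = 0.0156, adjusted p = 0.0179 for both). The sizes depended on the marks and the overlap length: the long-overlap difference was -1.17 points without low mapping quality marks, -1.31 without duplicate marks and -1.03 for more than 4 shared bases, and the insertion difference 2.42 without duplicate marks and 2.20 with identical junctions counted once. The orientations are mixed differently in the 2 regions. Taken apart, long overlaps of inverted joins stood at 5.14% and 6.05% at Sµ and at 5.12% and 5.61% at Sγ1 for IL4 and TGF, and those in the bait's orientation at 11.3% and 11.7% at Sµ and 10.3% and 11.0% at Sγ1. Insertions of inverted joins stood at 24.5% and 25.4% at Sµ and at 22.96% and 24.7% at Sγ1, and those in the bait's orientation at 24.9% and 24.6% at Sµ and 20.1% and 20.97% at Sγ1, so that the gap was wider in the bait's orientation. The values by orientation were not tested. The lower long-overlap share of Sµ joins as a whole stood beside group means by orientation at or above those of Sγ1. Single libraries went the other way, since IL4 library 2 was lower at Sµ in both orientations and TGF library 2 in inverted joins.

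Against the reciprocal Sµ-bait joins to Sγ3, Sγ3-bait joins to Sµ had 1.49 points more long overlaps (exact permutation p = 0.00245, adjusted p = 0.00245) and 3.72 points more insertions (exact p = 0.000816, adjusted p = 0.00122). Within a single stimulation the difference in long overlaps was 1.54 points for IL4 and 1.43 for TGF (exact p = 0.0571 each), and that in insertions 4.26 (exact p = 0.0571) and 3.17 points (exact p = 0.0286). With longer alignments required, the long-overlap difference was 2.995 points (exact p = 0.000816) and the insertion difference 1.66 points, which did not pass (exact p = 0.0563). Among joins without insertions the long-overlap difference was 2.35 points (exact p = 0.000816). By orientation (added), the inverted product read from both sides differed by 0.798 points in long overlaps (exact p = 0.0792) and by 4.74 points in insertions, more frequent with the Sγ3 bait (exact p = 0.000816, adjusted p = 0.00122), and the long overlaps of the different products of the bait's orientation differed by 3.62 points (exact p = 0.00163, adjusted p = 0.00196). Each bait shows breaks only within the stretch its reads cover, so the 2 baits sample different parts of the same product.

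**Figure D4:**
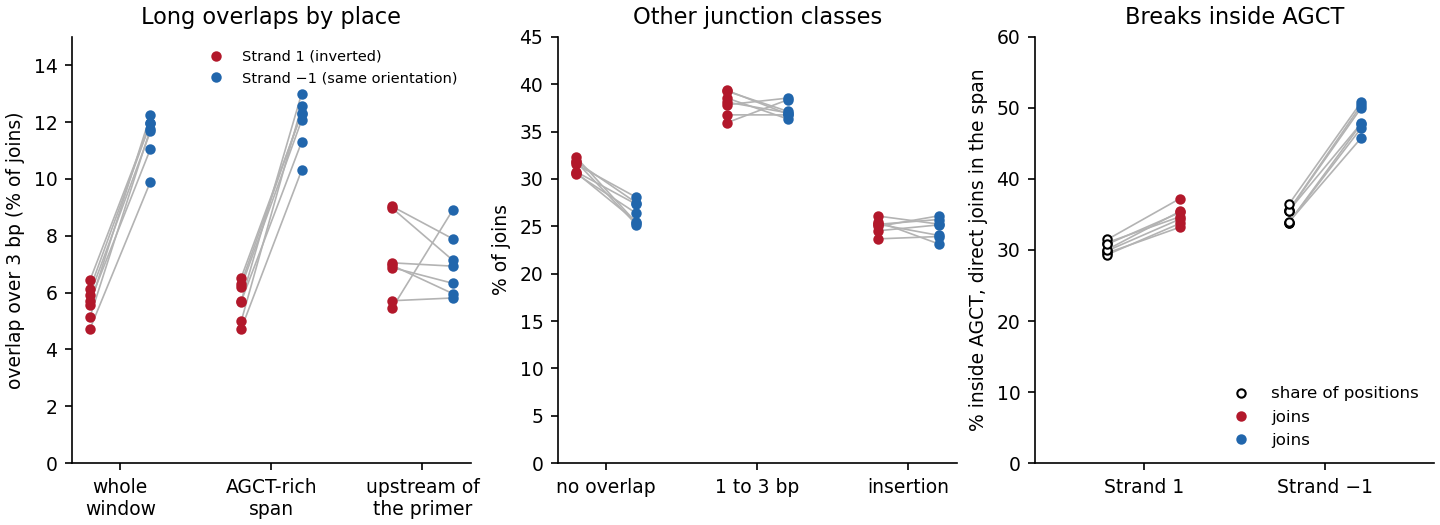
Orientation within A150 libraries. Grey lines join the 2 values of a library. The left panel gives joins with more than 3 shared bases (%) in the whole window, the AGCT-rich span and the sequence upstream of the Sµ bait primer, the middle panel the other classes, and the right panel the direct joins of the span that broke inside AGCT (filled) with the share of positions inside it (open). The orientations stand apart in the whole window and the span and intermix upstream of the primer.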

How the data were processed

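The authors deposited a junction table per library, per the file headers one row for each bait-prey junction with the genome and read coordinates of both alignments, the read and filter marks. Values are single junctions without normalization. The submitters' processing notes name mm9 and Bowtie2, and other steps are not given in the sources used here. Shared bases were computed as the read overlap of bait and prey alignments. A library was the unit of every test: exact permutation of libraries (between stimulations, or within each stimulation for genotype and bait) or exact sign flips within libraries, 2-sided, with Benjamini-Hochberg adjustment within each kind and a threshold of 0.05. The study's legends count independent mice, and p-values measure the spread between libraries. Intervals cover counting error only.

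Reference bases were kept where at least 5 reads covered a position and 90% agreed, which recovered 11437 of 40000 positions in the window. Only bases marked as matching mm9 were counted, so agreement was high by construction (mean 99.9998%). The filter therefore cannot show where the mice differ from mm9. The Sµ primer was matched to the recovered bases. The tests of share, orientation, position and overlap were run on simulated junction tables with known differences before use. The members and lists were chosen with earlier results of these data known. Named positions were the 5 with the most joins among those found in every A150 library of the Sγ3 bait, and printed junctions those found in the most A150 libraries per orientation and class. Same-numbered libraries of the 2 stimulations were not treated as paired. Their deviations correlated at 0.0295, 0.397 and 0.529, which does not settle whether they share mice. The sign flips within libraries take all libraries as independent, and their p-values would be too small if mice were shared. Alternatives were left-out libraries, filter marks, identical junctions once, first junction per read, the 6 kb window, longer alignments, pooled junctions, paired libraries, other denominators and other overlap definitions. Python 3.11.15, numpy 2.4.6, pandas 2.3.3, scipy 1.17.1 and matplotlib 3.10.9 were used.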

Additional observations from a re-analysis of the deposited data

Results flagged for a closer look

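Of 12 effects compared between the stimulations by exact permutation, 3 reached an unadjusted p under 0.05, and none passed adjustment (adjusted p = 0.150 each). The excess of the inverted share at Sµ over that at Sγ1 was 50.7 points in TGF and 57.1 in IL4, a difference of -6.45 points (exact p = 0.0286). The excess of the inverted share over an even split was 16.8 points in TGF and 21.2 in IL4, a difference of -4.42 (exact p = 0.0286), which is the change in orientation balance reported above. The shift of the median between the baits was -437 bp in TGF and -340 bp in IL4, a difference of -96.2 bp (exact permutation p = 0.0376). Among the 4 TGF libraries, none lay apart from the others by Dixon's test at the 95% level, and groups of 3 were not tested.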

How the results depend on the processing

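Of the recomputed values, 285 kept their direction and their side of the threshold, 3 reversed and 2 no longer passed. For the comparisons of the stimulations, which did not pass, a left-out library leaves no exact p that could pass, so those values bear on direction and size only. The exceptions were the TGF-IL4 difference in Sµ share, which turned to -1.01 without junctions marked for low mapping quality and to -1.01 against all junctions of the genome. Those denominators differ, and no Sµ join was marked. The A150-WT difference fell to 1.36 points among IgH junctions outside Sγ3. The insertion difference between baits fell to 1.66 points with longer alignments, and that between orientations reversed to -0.0768 without TGF library 3, in a range from -0.0768 to 0.498 over left-out libraries. The cause of these 3 changes was not tested. With the replicate block (same-numbered libraries paired), the share difference was 2.53 points (exact sign-flip p = 0.25). That is the smallest p that 3 pairs allow, so pairing cannot test the stimulations. For genotype, 10.9 points (exact p = 0.0312), and for the 3 comparisons of the baits, pairing changed no call. Whether the same number stands for the same mouse is not given in the sources used here: libraries 2 and 3 correlated best with their own number and library 1 did not. The comparisons within libraries were not recomputed by mouse, so their p-values hold only if the libraries are independent. Left-out libraries moved the inverted share against 50% between 18.02 and 19.2 points, the strand difference in position between 1816 and 1895 bp and that in long overlaps between -5.96 and -5.71 points. Over the other settings the first ran from 18.6 to 20.1 points and the second from 1845 to 1994 bp. The long-overlap difference varied more, from -8.04 to -3.90 points, over settings that include other overlap definitions. No call changed in these 3 results. The alternatives chosen after seeing the data, within the span and at matched positions, are given above. Depth limits the WT libraries, where 3 junctions are 2.94% or more.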
